A study of Mus musculus with 32 samples.

Results

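The translation initiation factor genes are the genes whose proteins load the small ribosomal subunit onto an mRNA, find its start codon and join the large subunit. They were taken by name, as every gene with an array probe set under a single symbol that begins with Eif1 to Eif6, leaving out Eif2ak3, Eif5a and Eif5a2. Of 18194 genes measured by such probe sets 44 met this rule, and each was read by its probe set of highest mean over 24 arrays. Tests covered 42 of them, because Eif2s3y, on the Y chromosome, and Eif4a3 lay too close to background in too many arrays. Eif2s3y was at 3.28 to 4.12 (log2) over the 32 arrays and Eif4a3 at 3.82 to 5.44. A brighter probe set that names Eif4a3 also names Gm5576 and was not used. Eif1, Eif2s1, Eif3g, Eif4e1b and Eif4g1 had no probe set under the rule and were not analysed here. Nor were Eif3j1, Eif3j2 and Eif4ebp3, whose probe sets name several genes.

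NMuMG is a mouse mammary gland epithelial line that TGFβ drives through an epithelial-mesenchymal transition, and E1KD is its derivative with knockdown of the RNA-binding protein hnRNP E1 (gene Pcbp1). Both lines were grown with insulin, which all groups therefore share, and were measured with TGFβ (TGF-beta2 per the labels, at 5 ng/ml, 24 h) or untreated. The groups were TGFβ-treated E1KD, untreated E1KD, TGFβ-treated NMuMG and untreated NMuMG cells, each as a polysomal pool, a monosomal pool and total RNA. Cytosolic RNA of NMuMG cells precipitated with an hnRNP E1 antibody or with mouse IgG gave 4 further groups, with and without TGFβ. Each of the 16 groups has 2 arrays that the labels call biological replicates. Nothing in the sources used here says whether these came from separate cultures or whether E1KD is 1 clone, so the p-values given here reflect the spread of these arrays and nothing wider. All values are RMA signals on the log2 scale, so a difference of 1 is a doubling of signal, and a gene was called at an adjusted p under 0.05 (limma, Benjamini-Hochberg over 25432 probe sets).

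In initiation, eIF2 brings the initiator tRNA with GTP to the small subunit, and eIF2B recharges eIF2 with GTP. Kinases of the Eif2ak family phosphorylate the alpha subunit of eIF2 under stress, which blocks that recharging. The eIF4F complex binds the mRNA cap through eIF4E, unwinds the leader through the helicase eIF4A and reaches the ribosome over its scaffold eIF4G and over eIF3, while the 4E-BP proteins sequester eIF4E. eIF1 and eIF1A control scanning, eIF5 triggers GTP hydrolysis at the start codon, eIF5B joins the subunits and eIF6 keeps free large subunits apart. An mRNA in the polysomal pool carries several ribosomes, and one in the monosomal pool sediments with free subunits or a single ribosome. In such bulk pools a signal is a share of the pool's RNA, and fewer cells with an mRNA and less of it per cell cannot be told apart.

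Some libraries stood apart. The polysomal minus monosomal differences of TGFβ-treated E1KD, untreated E1KD and TGFβ-treated NMuMG cells correlated with one another at Pearson r of 0.70 to 0.82 across 25432 probe sets, which share arrays of 1 platform and are no independent replicates. Those of untreated NMuMG cells correlated with them at -0.35 to 0.03. The untreated NMuMG monosomal pool was also the pool nearest to total RNA, at a median absolute difference of 0.42 (log2), where the other pools lay at 0.65 to 1.14. What sets it apart was not tested. The pools are given as labelled. Were their labels exchanged, each untreated NMuMG difference would turn its sign. Every NMuMG shift, difference of shifts and TGFβ change of an NMuMG pool would then change too. Pcbp1 in total RNA averaged 9.44 and 10.83 in E1KD cells with and without TGFβ, and 13.14 and 13.10 in NMuMG cells. The epithelial keratins Krt8 and Krt18 averaged 13.9 or more in every group and Cdh1 9.61 to 12.5, and of the other epithelial markers Krt19 lay at 11.3 to 13.1, Cldn3, Cldn4 and Epcam lower, and Esrp1 did not pass the filter on low values. The mesenchymal markers Vim (13.3 to 14.1), Fn1, Cdh2, Zeb1 and Zeb2 passed it. Of the leukocyte and endothelial markers Cd3e passed, at 5.07 to 6.70, and Ptprc, Adgre1, Pecam1, Cdh5 and Tek did not.

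Some initiation factor mRNAs are themselves regulated in translation through the start of the transcript. In terminal oligopyrimidine (TOP) mRNAs the first base is a C followed by a run of pyrimidines, through which mTOR signalling acts on the ribosome load. RefSeq promoters (GRCm38.p6) held 35 of the 44 members. A C at the annotated start followed by at least 4 further C or T bases was present in 2 of them, Eif3f and Eif2s3x, and in 3.01% of the 27025 genes of the table, read on the transcribed strand. The 30 bases around the start, 10 before it and 20 from it on, are shown for these and for 5 members whose pool differences were called in all of the 3 alike conditions described next, with the pyrimidine run at the start in capitals.
Eif3f (chr7:108934405-108934434, plus strand): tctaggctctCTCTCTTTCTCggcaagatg
Eif2s3x (chrX:94212632-94212661, minus strand): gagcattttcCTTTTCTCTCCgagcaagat
Eif3m (chr2:105017008-105017037, minus strand): cggtcggcgtgtttctggatcggagcgtct
Eif2a (chr3:58525811-58525840, plus strand): gactccgcccgctccggagagggagggcga
Eif5b (chr1:37998000-37998029, plus strand): ctgggttcccacctggccggcggctctact
Eif3b (chr5:140419295-140419324, plus strand): ggcgcgcggtgacttctgggagtcggaagc
Eif4h (chr5:134639390-134639419, minus strand): acttgcgatcaggcagcgcggcggacagcc
Both pyrimidine runs are 11 bases long. A run missing at an annotated start says only that these letters are not there, since starts are annotated to varying precision. Eif4b, known to have a TOP mRNA, had a run of 1 base at its annotated start. Eif3e and Eif3h, known as TOP mRNAs too, were not among the promoters. The 2 members are thus no full list of TOP mRNAs.

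Initiation factor mRNAs lay mostly toward the polysomes in the 3 conditions that resemble each other. In TGFβ-treated E1KD cells 28 of the 42 were higher in the polysomal than the monosomal pool and 6 were lower, where 34.0% and 26.6% of all probe sets were. In untreated E1KD cells 17 were higher and 6 lower (all probe sets, 16.8% and 18.2%), and in TGFβ-treated NMuMG cells 20 were higher and 7 lower (27.6% and 22.1%). The median difference of the members was 0.82, 0.19 and 0.35 in this order, against 0.04, -0.02 and 0.02 over all probe sets. In all 3 conditions 16 members were higher, 38.1% of those tested, where 12.5% of all probe sets were, and 4 members were lower, 9.52%, where 11.3% were. Here and below, all probe sets include dim ones and several of the same gene, while each member is the brightest probe set of its gene. The shares are thus not of like probe sets. Centring the arrays on Actb and Gapdh raised the median of all probe sets in TGFβ-treated NMuMG cells to 0.28 and gave 27 members higher and 4 lower there.

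**Figure D1:**
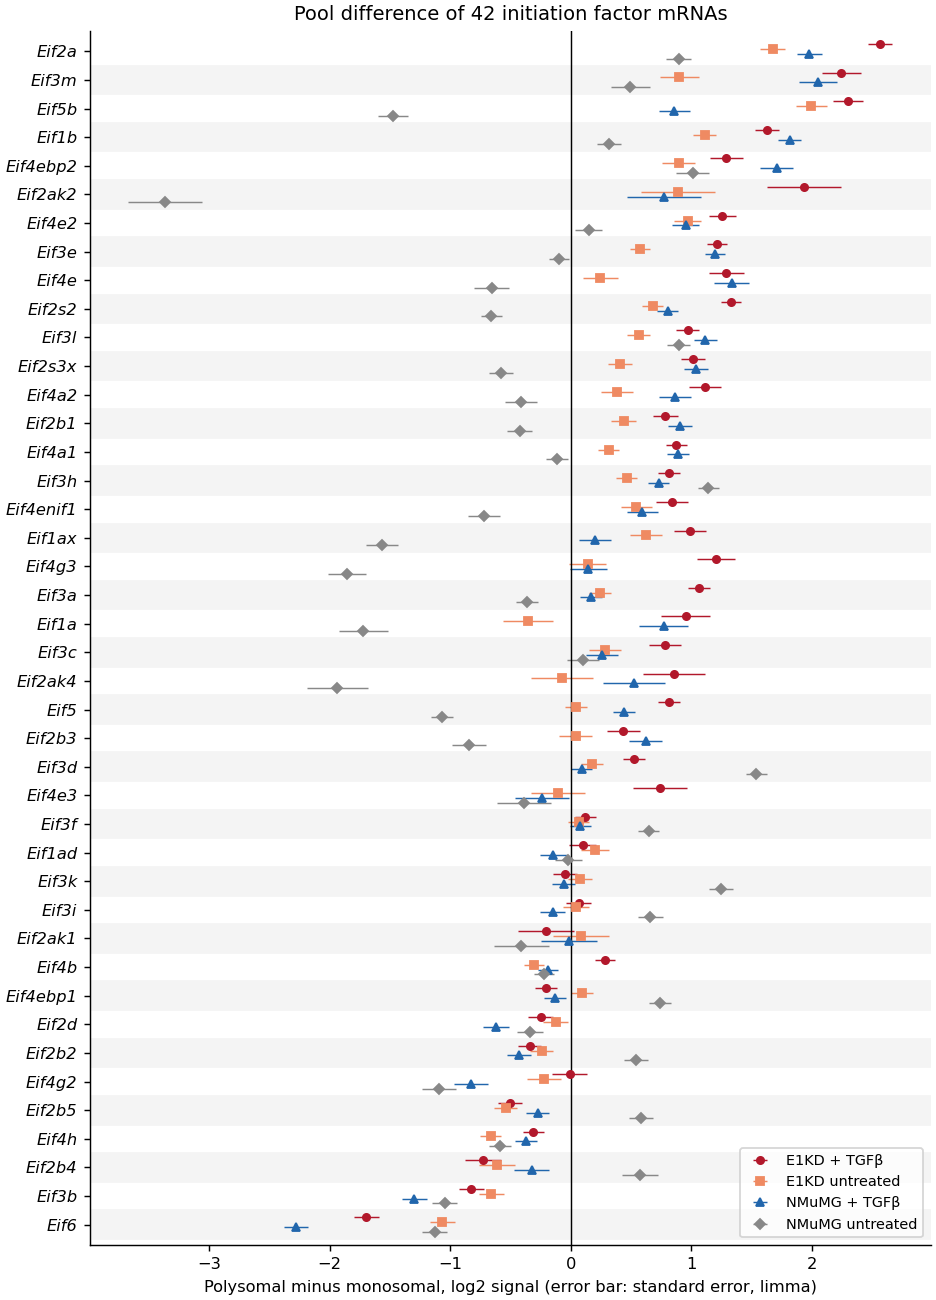
Polysomal minus monosomal difference (x axis, log2) of the 42 initiation factor mRNAs (y axis, ordered by their mean over the first 3 conditions of the legend), 1 marker per condition with its standard error. Eif2a, Eif3m and Eif5b stand at the polysomal end and Eif6 and Eif3b at the monosomal end of those 3 conditions, while the grey markers of untreated NMuMG cells follow another order.

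Of the 4 genes that bring the initiator tRNA, Eif2a, Eif2s2 and Eif2s3x were higher in the polysomes in all 3 conditions. Eif2a, which encodes a monomeric factor that can bring initiator tRNA without GTP, was at 11.87 and 11.78 in the polysomal and 9.16 and 9.36 in the monosomal arrays of TGFβ-treated E1KD cells. In untreated E1KD cells its polysomal arrays read 11.57 and 11.45 and its monosomal arrays 9.81 and 9.86. TGFβ-treated NMuMG cells gave 10.77 and 10.91 polysomal, against 8.78 and 8.94 monosomal. The pools never overlapped, and the differences of 2.57, 1.68 and 1.98 (standard error 0.10 each) are folds of 5.92, 3.19 and 3.95 (adjusted p of 1.16e-10, 1.92e-08 and 3.82e-10, limma). Eif2s2 and Eif2s3x, the beta and gamma subunits of eIF2, were higher by 1.33 and 1.02 in TGFβ-treated E1KD, by 0.68 and 0.41 in untreated E1KD and by 0.81 and 1.04 in TGFβ-treated NMuMG cells. The Eif2s3x transcript begins with the pyrimidine run printed above. The dimmest Eif2s2 probe set was called in the opposite direction in both TGFβ-treated conditions, and 1 bright probe set too in NMuMG cells, at -0.86. Eif2d, whose protein delivers tRNA without GTP, differed by -0.25, -0.12 and -0.62, and was called in TGFβ-treated NMuMG cells.

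The subunits of eIF2B, the exchange factor of eIF2, divided. Eif2b1, for the regulatory alpha subunit, was at 9.31 and 9.40 polysomal and 8.50 and 8.64 monosomal in TGFβ-treated E1KD cells, and it was higher in the polysomes in all 3 conditions, by 0.79, 0.44 and 0.91. Eif2b5, for the catalytic epsilon subunit, was at 11.68 and 11.71 polysomal and 12.15 and 12.25 monosomal in TGFβ-treated E1KD cells, and it was lower in all 3, at -0.51, -0.54 and -0.28. These 2 members of 1 complex thus lay on either side of 0, but with centring on Actb and Gapdh Eif2b5 stood at -0.0075 in TGFβ-treated NMuMG cells, without a call. Eif2b4 differed by -0.73, -0.61 and -0.32 and Eif2b2 by -0.34, -0.24 and -0.43, each called in 2 of these conditions, those of Eif2b2 not with that centring. Eif2b3, for the gamma subunit that pairs with epsilon, was higher under TGFβ in both lines, by 0.44 in E1KD and 0.62 in NMuMG cells, where quantile normalization gave 0.14 without a call in E1KD cells. Of the eIF2 alpha kinases Eif2ak2 (PKR, activated by double-stranded RNA) was higher in all 3 conditions, by 1.94, 0.89 and 0.78, the last without a call under quantile normalization (adjusted p = 0.0536, limma). Eif2ak4 (GCN2, activated by amino acid shortage) was called higher in TGFβ-treated E1KD cells, at 5.93 and 5.68 polysomal and 4.73 and 5.17 monosomal, so near background that the 0.86 is uncertain, and it differed by -0.08 and 0.52 in the other conditions without a call, and Eif2ak1 (HRI, activated by heme shortage) was called in none of them.

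The 11 tested genes of eIF3, the scaffold between mRNA and small subunit, ranged widely, from 2.25 for Eif3m to -0.83 for Eif3b in TGFβ-treated E1KD cells. Eif3m was at 11.78 and 11.81 in the polysomal and 9.58 and 9.52 in the monosomal arrays of TGFβ-treated E1KD cells. In untreated E1KD cells it read 11.61 and 11.58 polysomal, against 10.61 and 10.78 monosomal, and in TGFβ-treated NMuMG cells 11.99 and 11.99, against 9.59 and 10.29. Its differences of 2.25, 0.90 and 2.05 were the largest of the eIF3 genes in each of the 3 conditions (standard error 0.16, adjusted p of 7.25e-09, 0.000326 and 2.23e-08, limma). Eif3e, Eif3h and Eif3l were also higher in all 3, by 1.22, 0.82 and 0.97 in TGFβ-treated E1KD cells. Eif3b, an RNA-binding core subunit, was lower in the polysomes, at 11.05 and 11.09 polysomal and 11.87 and 11.92 monosomal in TGFβ-treated E1KD cells. Its difference was -0.83 there, -0.66 in untreated E1KD and -1.30 in TGFβ-treated NMuMG cells (adjusted p of 3.84e-06, 0.000107 and 2.90e-08, limma).

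Eif3a, the largest subunit and a core partner of Eif3b, was at 12.76 and 12.81 polysomal and 11.77 and 11.68 monosomal in TGFβ-treated E1KD cells, a difference of 1.06 (adjusted p = 5.66e-08, limma). In untreated E1KD cells it read 12.74 and 12.53 polysomal and 12.41 and 12.38 monosomal, and in TGFβ-treated NMuMG cells 11.58 and 11.63, against 11.43 and 11.45. Those differences of 0.24 and 0.16 were not called. Eif3c and Eif3d were likewise called in TGFβ-treated E1KD cells, at 0.78 and 0.53. Tested directly, the rise with TGFβ in E1KD cells passed for Eif3a (0.82) and Eif3d (0.35) and not for Eif3c, at 0.50 (limma). Eif3f, Eif3i and Eif3k were called in none of the 3, with differences of -0.15 to 0.12. Eif3f, the other transcript with a pyrimidine run at its start, was at 13.86 and 13.99 polysomal and 13.78 and 13.83 monosomal in TGFβ-treated E1KD cells. The transcripts of Eif2s3x and Eif3f, with runs of the same length, thus differed between the pools by 1.02 and 0.12 there.

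Of the 9 genes of eIF4F and its helpers 7 were higher in the polysomes and 1 lower in TGFβ-treated E1KD cells. Eif4e, which binds the cap, was at 10.68 and 10.77 polysomal and 9.52 and 9.35 monosomal in TGFβ-treated E1KD cells, and at 11.68 and 11.64, against 10.06 and 10.59, in TGFβ-treated NMuMG cells. The differences were 1.29 and 1.34 (standard error 0.15, adjusted p of 1.18e-06 and 1.02e-06, limma). Untreated E1KD cells read 10.59 and 10.69 polysomal and 10.34 and 10.45 monosomal, and their 0.24 was not called. Another Eif4e probe set, at 0.62 and 1.29 in NMuMG and E1KD cells under TGFβ, ran the same way as the one used, and the dimmest was called in the opposite direction in both. Eif4e2, for the translational repressor 4EHP, was higher in all 3 conditions, by 1.26, 0.97 and 0.96, with 1 of its dim probe sets called lower in TGFβ-treated E1KD cells.

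Eif4a1 and Eif4a2, for the near-identical helicases of eIF4F, were higher in all 3 conditions. Eif4a1 was at 13.16 and 13.18 polysomal and 12.32 and 12.27 monosomal in TGFβ-treated E1KD cells, at 13.16 and 13.20, against 12.83 and 12.90, in untreated E1KD cells and at 13.39 and 13.36, against 12.40 and 12.57, in TGFβ-treated NMuMG cells. Its differences were 0.88, 0.32 and 0.89. Eif4a2 read 12.73 and 12.82 polysomal, against 11.69 and 11.64 monosomal, in TGFβ-treated E1KD cells, 12.41 and 12.53, against 12.10 and 12.08, in untreated E1KD cells and 11.87 and 11.92, against 10.79 and 11.27, in TGFβ-treated NMuMG cells. Its differences were 1.11, 0.38 and 0.87, and neither gene's pools overlapped in any of these conditions. Whether probes of such paralogs share signal, here or for Eif1a and Eif1ax, was not tested.

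Eif4h, Eif4b and Eif4g2 stood otherwise. Eif4h, an enhancer of the eIF4A helicase, was lower in the polysomes in all 3 conditions, at -0.31, -0.67 and -0.37, and each of its 4 brightest probe sets ran that way. Centring on Actb and Gapdh left -0.19 and -0.10 under TGFβ in E1KD and NMuMG cells, without a call. Eif4b, another enhancer of the helicase and a gene known to have a TOP mRNA, was at 12.89 and 12.87 polysomal and 12.56 and 12.64 monosomal in TGFβ-treated E1KD cells, a difference of 0.28 that was called. In untreated E1KD cells it read 12.68 and 12.73 polysomal and 12.97 and 13.05 monosomal, and its -0.31 was called in the other direction. TGFβ-treated NMuMG cells gave 12.21 and 12.18 polysomal, against 12.37 and 12.39 monosomal, and -0.18 without a call. Eif4g2, for the eIF4G relative DAP5 that lacks the eIF4E site, was lower in TGFβ-treated NMuMG cells, at -0.83, and differed by -0.01 and -0.22 in the E1KD conditions. Eif4g3, for the scaffold eIF4GII, was higher by 1.21 in TGFβ-treated E1KD cells and differed by 0.14 in untreated E1KD cells and 0.15 in TGFβ-treated NMuMG cells. Eif4e3 was called higher in TGFβ-treated E1KD cells, by 0.74, and not with quantile normalization (0.50). Its E1KD shift was not called.

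The 3 measured genes for eIF4E-binding proteins parted too. Eif4ebp2 was at 10.49 and 10.48 polysomal and 9.17 and 9.22 monosomal in TGFβ-treated E1KD cells. It read 10.05 and 10.11, against 9.08 and 9.29, in untreated E1KD cells and 11.65 and 11.70, against 9.96 and 9.97, in TGFβ-treated NMuMG cells. It was higher in the polysomes each time, by 1.29, 0.90 and 1.71, with a dim probe set called lower in TGFβ-treated E1KD cells. Eif4ebp1, the classical target of mTOR, was at 13.40 and 13.40 polysomal and 13.58 and 13.63 monosomal in TGFβ-treated E1KD cells, at 13.51 and 13.49, against 13.38 and 13.44, in untreated E1KD cells and at 13.43 and 13.45, against 13.63 and 13.51, in TGFβ-treated NMuMG cells. Its differences of -0.20, 0.09 and -0.13 were not called. Eif4enif1, for the eIF4E transporter 4E-T, was higher in all 3 conditions, by 0.84, 0.55 and 0.60.

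Among the factors of scanning and joining, Eif5b and Eif6 lay at opposite ends. Eif5b, for the GTPase that joins the subunits, was at 7.85 and 8.27 polysomal and 5.84 and 5.68 monosomal in TGFβ-treated E1KD cells. Untreated E1KD cells read 8.62 and 8.63, against 6.63 and 6.63, and TGFβ-treated NMuMG cells 7.41 and 7.42, against 6.64 and 6.47. Its differences were 2.30, 2.00 and 0.86 (standard error 0.13, adjusted p of 6.63e-10, 2.24e-08 and 2.65e-05, limma). The monosomal arrays of TGFβ-treated E1KD cells lie close to background for Eif5b, so the size of the 2.30 is uncertain. Eif6, whose protein holds the large subunit apart, was at 11.76 and 11.91 polysomal and 13.48 and 13.58 monosomal in TGFβ-treated E1KD cells, at 12 and 12.09, against 13.06 and 13.16, in untreated E1KD cells and at 11.50 and 11.29, against 13.63 and 13.72, in TGFβ-treated NMuMG cells. Its differences of -1.70, -1.07 and -2.28 were the most monosomal of all members in each of the 3 conditions (adjusted p of 1.40e-09, 8.67e-07 and 1.26e-10, limma). Eif1b, a close relative of eIF1, was higher in the polysomes by 1.63, 1.11 and 1.82. Eif5 was at 12.88 and 12.92 polysomal and 12.09 and 12.08 monosomal in TGFβ-treated E1KD cells, at 12.79 and 12.91, against 12.83 and 12.78, in untreated E1KD cells and at 12.25 and 12.10, against 11.74 and 11.72, in TGFβ-treated NMuMG cells. Eif5 was called in the TGFβ conditions of both lines, at 0.82 and 0.45, and Eif1ad in no condition. Eif1a and Eif1ax, for forms of eIF1A, were higher by 0.96 and 0.99 in TGFβ-treated E1KD cells, and differed by -0.36 without a call and 0.63 with one in untreated E1KD cells. In TGFβ-treated NMuMG cells Eif1a was higher by 0.77, and Eif1ax, at means of 11.33 polysomal and 11.13 monosomal, was not called.

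**Figure D2:**
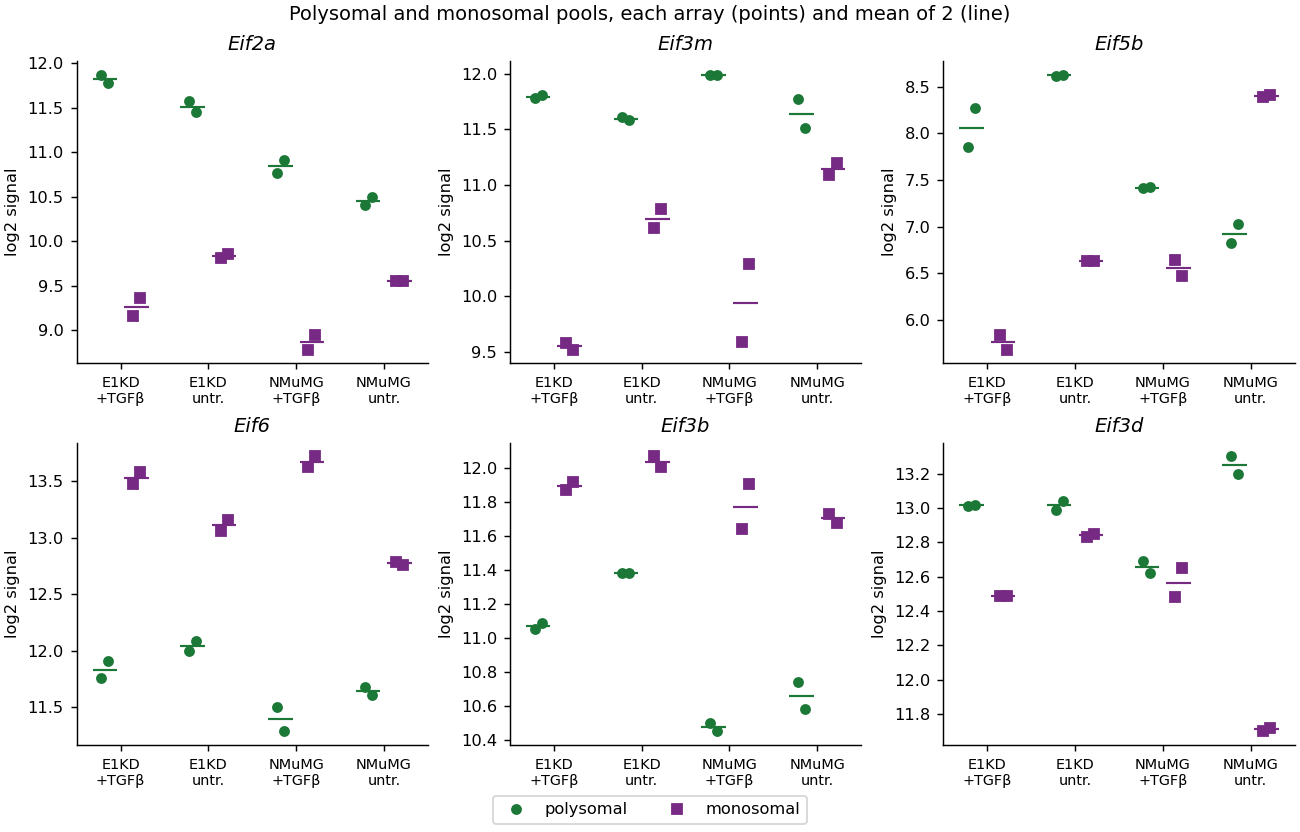
Log2 signal (y axis) of 6 members in each polysomal (circles) and monosomal (squares) array of the 4 conditions (x axis), with the mean of the 2 arrays as a line. Eif2a and Eif3m were polysomal and Eif6 and Eif3b monosomal throughout, while Eif5b and Eif3d stood differently in untreated NMuMG cells.

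Untreated NMuMG cells had another order. There 14 members were higher in the polysomal than the monosomal pool and 21 were lower, where 29.3% and 41.9% of all probe sets were, and the median of the members was -0.35, against -0.14 over all. Quantile normalization and centring on Actb and Gapdh each gave 16 higher and 16 lower, and with quantile normalization the median of all probe sets stood at 0.06. Of the 16 members that were polysomal in the other 3 conditions 6 were so here, 7 were monosomal and 3 were not called. The same split was not counted for all probe sets polysomal in those conditions, so it is not shown to be particular to the members. Eif2a, Eif3m, Eif3h, Eif3l, Eif1b and Eif4ebp2 were the 6, and Eif6, Eif3b and Eif4h stayed monosomal. Eif2b5, monosomal elsewhere, was polysomal here by 0.59.

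Eif2ak2 differed most. It was at 4.90 and 6.39 in the untreated NMuMG polysomal arrays and at 9 and 9.02 in the monosomal arrays, a difference of -3.37 (standard error 0.305, adjusted p = 9.45e-08, limma), and its polysomal replicates lay far apart, 1 of them below 5.52, the median of all values, where signals are near background and a difference is uncertain. Eif5b was at 6.82 and 7.03 polysomal and 8.39 and 8.41 monosomal, a difference of -1.48. Eif6 read 11.68 and 11.61 polysomal, against 12.79 and 12.76 monosomal. These members were monosomal, as were Eif2ak4 (-1.94), Eif4g3 (-1.86), Eif1a (-1.72) and Eif1ax (-1.57). On the other side stood several eIF3 subunits, with Eif3d at 13.30 and 13.20 polysomal, against 11.70 and 11.72 monosomal, and Eif3k at 13.47 and 13.30, against 12.13 and 12.15. Eif3d was higher by 1.54, Eif3k by 1.245 and Eif3h by 1.14, and 7 of the 11 eIF3 genes were polysomal in all.

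Of the 9 genes of eIF4F and its helpers 6 were monosomal and 3 not called. Eif4e was at 11.29 and 10.95 polysomal and 11.76 and 11.79 monosomal in untreated NMuMG cells, and Eif5 at 11.60 and 11.72, against 12.76 and 12.70. Eif4a1 read 13.55 and 13.44 polysomal and 13.62 and 13.60 monosomal without a call, and Eif4a2 11.81 and 11.53, against 12.04 and 12.13. Eif4ebp1 was at 13.56 and 13.60 polysomal and 12.81 and 12.87 monosomal. Eif4ebp1 was polysomal by 0.74 and Eif4enif1 monosomal, at -0.72. Eif4e, Eif5 and Eif4a2 were monosomal, at -0.66, -1.07 and -0.42. Centring on Actb and Gapdh ended the calls of Eif4a2 and Eif3a, and quantile normalization that of Eif4enif1. Eif3a (11.92 and 11.97 polysomal, against 12.34 and 12.27 monosomal) and Eif4b (12.50 and 12.46, against 12.71 and 12.70) were monosomal, at -0.36 and -0.23, with dimmer probe sets of Eif3a, Eif4b and Eif5 called in the opposite direction. The call of Eif4b turned to 0.003 when arrays were centred on Actb and Gapdh, and that of Eif2b1, at -0.43, turned to 0.15 with quantile normalization.

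To follow the move between pools, the difference of the pools without TGFβ was subtracted from that with it, and the result was called the polysome shift. In NMuMG cells 22 members had a higher shift and 10 a lower one (all probe sets, 40.1% and 30.3%), with a median of 0.61, against 0.09 over all. In E1KD cells 18 were higher and only Eif6 was lower (all probe sets, 20.9% and 7.73%), with a median of 0.38, against 0.08. The shift of Eif2ak2 in NMuMG cells was 4.14 (standard error 0.43, adjusted p = 4.56e-07, limma), that of Eif1a 2.49, of Eif2ak4 2.46, of Eif5b 2.34, of Eif4g3 2.00 and of Eif4e 1.99. The kinase shifts are uncertain in size, since the untreated polysomal arrays read 4.90 and 6.39 for Eif2ak2 and 5.47 and 5.59 for Eif2ak4, near or below 5.52. Eif3d, Eif3k and Eif6 had the most negative NMuMG shifts, at -1.45, -1.31 and -1.15. Dim probe sets of Eif2s2 and Eif4g3 and another probe set of Eif3a were called in the direction opposite to their gene. Among called members the E1KD shifts were largest for Eif3m (1.35), Eif1a (1.31), Eif4g3 (1.07), Eif4e (1.05), Eif2a (0.89) and Eif3a (0.82), and that of Eif6 was -0.63 (adjusted p = 0.00501, limma).

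Taken pool by pool, more members were called in the NMuMG monosomal than in the polysomal pool, as were more of all probe sets. Both comparisons rest on the untreated NMuMG pools, which stood apart. After TGFβ 26 members were lower and 10 higher in the NMuMG monosomal pool (all probe sets, 41.1% and 34.3%), with a median of -0.67, against -0.05 over all. In the polysomal pool 14 were higher and 5 lower (all probe sets, 18.8% and 11.3%), with a median of 0.03, against 0.02, and quantile normalization gave 13 and 9. With only the 4 polysomal arrays fitted none was called. Eif1a fell to 8.65 and 9.51 in the TGFβ-treated monosomal pool, against 11 and 11.28 untreated, and read 9.89 and 9.81 in the TGFβ-treated polysomal pool, against 9.65 and 9.19. The change was -2.06 in the monosomal pool (adjusted p = 2.07e-07, limma) and 0.43 in the polysomal pool without a call. In E1KD cells, where these pool changes were not tested, Eif1a read 8.61 and 8.75 in the TGFβ-treated monosomal pool, against 10.09 and 9.93 untreated, and 9.60 and 9.67 in the TGFβ-treated polysomal pool, against 9.63 and 9.68. In the NMuMG monosomal and polysomal pools Eif2s3x changed by -1.65 and -0.04, Eif2s2 by -1.43 and 0.04 and Eif4e by -1.45 and 0.54. Eif2ak2 was lower in the monosomal pool, at -2.26, and higher by 1.89 in the polysomal pool. That 1.89 is uncertain, since its untreated polysomal arrays read 4.90 and 6.39, the first near background. Eif5b changed by -1.845 in the monosomal pool. Of the 10 members higher there, Eif3k (1.125), Eif6 (0.90) and Eif3d (0.855) changed most. Probe sets of Eif2s2, Eif4g3 and Eif4h were called in the opposite direction in the monosomal pool. Leaving out 1 of the TGFβ-treated polysomal arrays (replicate 1) brought the polysomal count to 12.

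**Figure D3:**
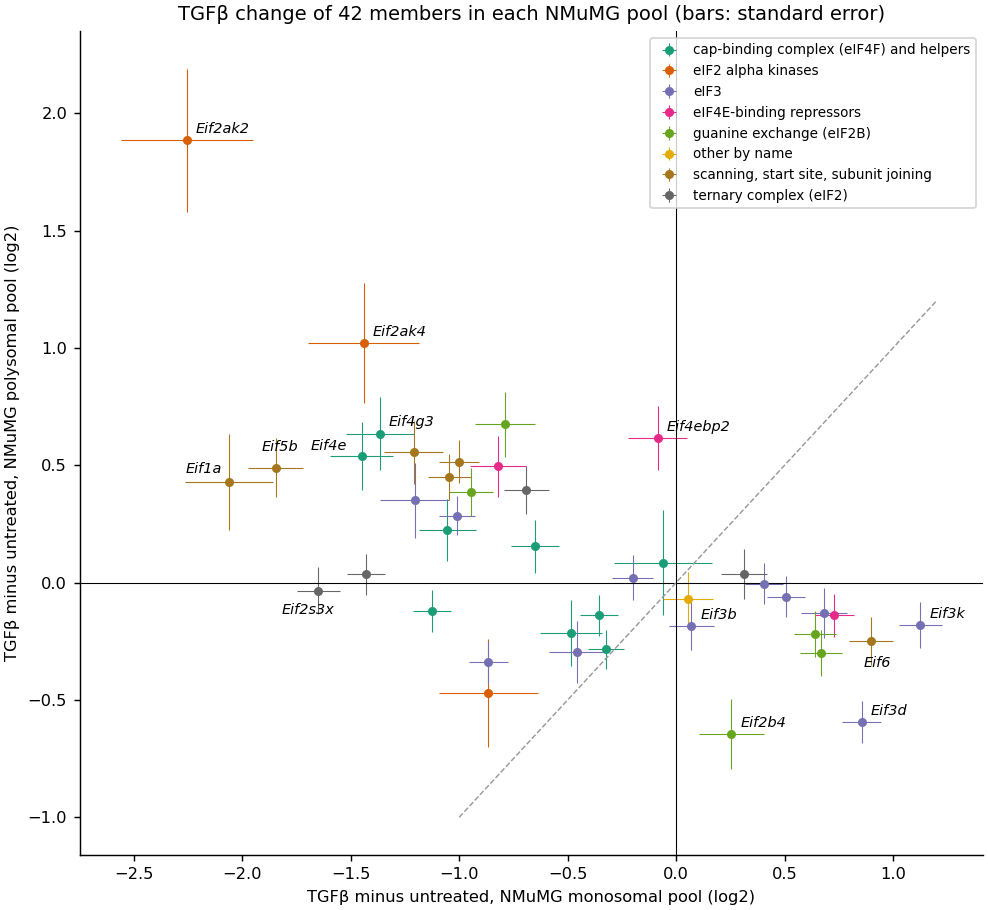
TGFβ minus untreated change (log2, bars are standard errors) of the 42 members in the NMuMG monosomal pool (x axis) and polysomal pool (y axis), coloured by role, with the line of equal change dashed. Most points lie left of 0 and within 1 log2 unit of 0 on the y axis, with Eif2ak2 at 1.89 and Eif2ak4 at 1.02 above the rest. Untreated polysomal arrays read near background for both, for Eif2ak2 in 1 array, so these sizes are uncertain.

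The shifts of the lines were compared by the E1KD shift minus the NMuMG shift. It was higher for 10 members and lower for 15 (all probe sets, 13.1% and 23.5%), and rests on the untreated NMuMG pools as much as the NMuMG shift does. Eif2ak2 (-3.10), Eif5b (-2.03), Eif2ak4 (-1.53) and Eif1ax (-1.40) were the lowest and Eif3d (1.80) and Eif3k (1.18) the highest. All 5 tested scanning and joining genes other than Eif6 were lower, Eif5 with another probe set called the other way. For eIF2B the difference was 0.87, 0.79 and 0.90 for Eif2b2, Eif2b4 and Eif2b5, and -0.99 and -1.07 for Eif2b1 and Eif2b3. All 5 were called.

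In total RNA of NMuMG cells TGFβ changed 1 of the 42 members. Eif2d alone was called, and it was higher, with 3.0% of all probe sets higher and 2.43% lower. It was at 10.61 and 10.60 in TGFβ-treated NMuMG cells, against 10.15 and 10.15 untreated, a change of 0.46 (standard error 0.11, adjusted p = 0.0161, limma). The other 41 members changed by -0.29 to 0.40, and Eif2d, Eif3b and Eif4g3 were the 3 members with an unadjusted p under 0.05. Omitting any single array of this comparison left 0 calls. Eif4e read 11.84 and 11.86 with TGFβ, against 11.83 and 11.85, and Eif4a1 13.77 and 13.80, against 13.79 and 13.79. Eif4a2 (13.13 and 13.07, against 13.07 and 13.01), Eif3a (13.66 and 13.63, against 13.61 and 13.59) and Eif5 (12.68 and 12.70, against 12.69 and 12.69) lay within 0.06 of their untreated means. Eif4b, Eif4ebp1 and Eif5b changed by -0.10, -0.02 and 0.07.

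In E1KD cells TGFβ changed 9 members of total RNA. Eif4ebp2, Eif6 and Eif1ax were higher and Eif2a, Eif4b, Eif3f, Eif3d, Eif4ebp1 and Eif5 lower (all probe sets, 11.4% higher and 9.75% lower). Eif4ebp2 was at 10.01 and 10.07 in TGFβ-treated E1KD cells, against 9.14 and 9.21 untreated, a change of 0.87 or 1.82-fold (standard error 0.14, adjusted p = 0.000264, limma). Eif6 was at 12.23 and 12.19, against 11.76 and 11.69, and changed by 0.49. Both groups of arrays stood clear of each other for these genes. Eif2a fell to 10.67 and 10.71 under TGFβ, against 11.15 and 11.26 untreated, by 0.52 (adjusted p = 0.00172, limma). Eif4b was at 12.75 and 12.76, against 13.19 and 13.22, and Eif4ebp1 at 12.44 and 12.29, against 12.79 and 12.66. The lower members thus included Eif4b and Eif3f, both known as TOP mRNAs, at -0.45 and -0.41, while the TOP mRNAs Eif3e and Eif3h differed by -0.005 and -0.19 without a call. Eif5 was lower, at -0.29 (12.81 and 12.90, against 13.16 and 13.12), and Eif4e, Eif4a1, Eif4a2, Eif3a and Eif5b were not called, at -0.02 to 0.25. The balance moved with the scaling, to 2 higher and 12 lower with centring on Actb and Gapdh, where the median of all probe sets was -0.13, and to 5 and 11 with quantile normalization. Without replicate 1 of the untreated E1KD arrays 5 members were called.

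The change under TGFβ differed between the lines for 4 members. For Eif4ebp2 the E1KD change exceeded the NMuMG change by 0.92 (standard error 0.19, adjusted p = 0.00480, limma). For Eif2d it stood at -0.74 (adjusted p = 0.00387), and for Eif2a and Eif3f at -0.47 and -0.45 (adjusted p of 0.0493 and 0.0269). Over all probe sets 5.76% were higher and 5.69% lower, and centring on Actb and Gapdh gave 1 member higher and 11 lower, quantile normalization 2 and 7. Leaving out any single total RNA array brought the 4 calls to 2.

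**Figure D4:**
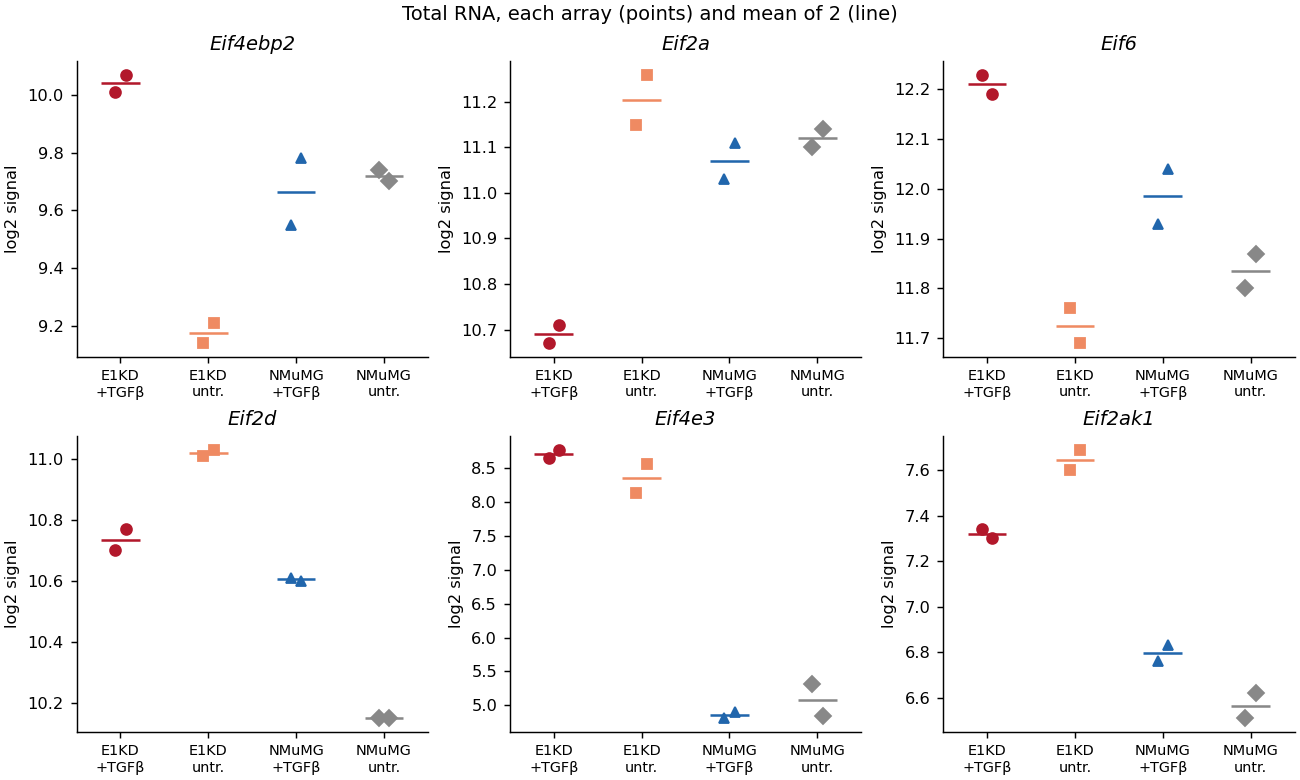
Log2 signal (y axis) of 6 members in each total RNA array of the 4 conditions (x axis), with the mean of the 2 arrays as a line. Eif4ebp2 in E1KD cells lay at 10.0 and above with TGFβ and near 9.2 without it, and Eif4e3 and Eif2ak1 stood higher in both E1KD groups than in both NMuMG groups.

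Untreated E1KD cells differed from untreated NMuMG cells in 17 members of total RNA, 10 higher and 7 lower (all probe sets, 15.8% and 13.5%). Eif4e3, for an atypical member of the eIF4E family, differed most. It was at 8.13 and 8.56 in E1KD cells, against 5.32 and 4.84 in NMuMG cells, a difference of 3.27 or 9.61-fold (standard error 0.22, adjusted p = 1.25e-08, limma), and its other probe set differed by 2.49. The NMuMG values lie below 5.52, the median of all values, where signals are near background, so the fold is uncertain. Eif2ak1 was at 7.6 and 7.69, against 6.51 and 6.62, and higher by 1.08. Its 2 dimmer probe sets differed by -0.40 and -0.16 without a call. Eif2d was at 11.01 and 11.03, against 10.15 and 10.15, with its next probe sets at 0.80 and 0.66. In these genes E1KD arrays all lay above NMuMG arrays.

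Eif4e2 (10.21 and 10.17, against 10.78 and 10.79), Eif4ebp2 (9.14 and 9.21, against 9.74 and 9.70) and Eif4e (11.33 and 11.38, against 11.83 and 11.85) were lower in untreated E1KD cells. The differences were -0.60, -0.55 and -0.49 (adjusted p of 0.000648, 0.00580 and 0.0185, limma). For Eif4e the other probe sets read 0.03, 0.51 and -0.005, and the mean of all its probe sets differed by 0.01. For Eif4e2 a dimmer probe set was called higher, at 0.62. Eif4g3, Eif1b, Eif5, Eif2b3, Eif3d, Eif4ebp1 and Eif3h were higher by 0.27 to 0.52, and Eif1ax, Eif5b, Eif4a2 and Eif2b2 lower, at -0.44 to -0.39. Eif6, Eif3a, Eif4a1 and Eif4b differed by -0.24 to 0.10 without a call. Leaving out single arrays brought the 17 calls to 8 without NMuMG replicate 2 or E1KD replicate 1, and to 10 without NMuMG replicate 1 or E1KD replicate 2. Centring on Actb and Gapdh gave 11 higher and 4 lower, and ended the calls of Eif4e, Eif4a2 and Eif1ax.

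The antibody to hnRNP E1 brought down more of 12 members than IgG did, and less of Eif1b (all probe sets, 14% and 11.7%). The labels of its libraries conflict, since the descriptions place TGFβ on 1 library titled as untreated and none on 1 titled as TGFβ. The comparison with IgG pools both treatments, so its differences are the same under either assignment, but the calls are not, and libraries grouped by array number gave 13 higher and 6 lower. Eif4ebp2 was at 11.69 and 10.94 in the TGFβ-titled and 11.25 and 11.46 in the untreated-titled hnRNP E1 arrays, against 10.28 and 10.26 in the TGFβ and 10.33 and 10.22 in the untreated IgG arrays. The difference was 1.06 or 2.09-fold (standard error 0.16, adjusted p = 0.00411, limma), and its second brightest probe set gave 0.98. Eif4g3 was at 10.12, 10.10, 10.25 and 9.97, against 9.26, 9.48, 9.46 and 9.47 with IgG. All hnRNP E1 arrays lay above all IgG arrays for both. Eif4g3 was higher by 0.69, Eif2b4 by 0.64, Eif3b by 0.61, Eif3d by 0.52, Eif2b2 by 0.51, Eif2b3 by 0.49 and Eif3c by 0.47.

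By role, 4 of 11 eIF3 genes, 3 of 5 eIF2B genes and 2 of 3 genes for eIF4E-binding proteins were higher in the hnRNP E1 precipitate. None of the 4 genes that bring the initiator tRNA or of the 3 kinases was. Groups of 3 or 4 genes are too small for none to stand apart from the share of all probe sets given above. The roles were not tested against each other. Eif5b (0.47), Eif6 (0.43), Eif3a (0.41) and Eif4enif1 (0.31) completed the 12. Its 3 other probe sets gave Eif3a 0.38, 0.56 and 1.01. Eif1b was at 10.12, 10.00, 9.79 and 10.17 with hnRNP E1 and 10.35, 10.41, 10.54 and 10.44 with IgG, a difference of -0.42 (adjusted p = 0.0228, limma). Eif4e, Eif4a1, Eif4a2, Eif4b, Eif4ebp1 and Eif5 were not called, at -0.14 to 0.18. Eif4ebp1 read 12.19, 11.61, 11.79 and 12.18 with hnRNP E1, against 12.06, 12.22, 11.89 and 12.03 with IgG. Centring on Actb and Gapdh gave 11 members higher and 4 lower.

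**Figure D5:**
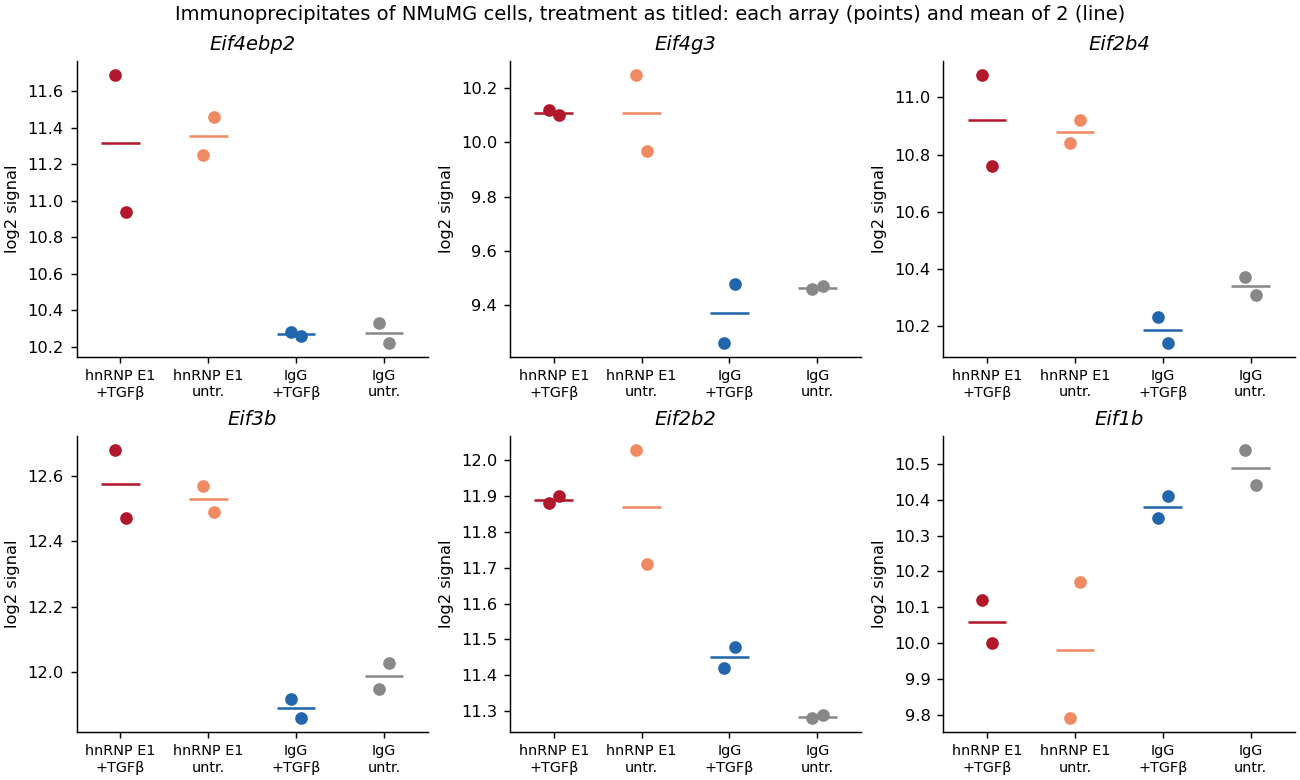
Log2 signal (y axis) of 6 members in each immunoprecipitation array of NMuMG cells (x axis: antibody and treatment as titled), with the mean of the 2 arrays as a line. Eif4ebp2, Eif4g3, Eif2b4, Eif3b and Eif2b2 were above IgG in every hnRNP E1 array and Eif1b below it.

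Between the hnRNP E1 libraries as titled no member was called, nor was any probe set (0% in either direction by limma). All members lay within -0.20 and 0.17, and 0 had an unadjusted p under 0.05. With the libraries taken by array number 3 members were called, 2 higher and 1 lower with TGFβ. The share of all probe sets called in that assignment was not counted, so these 3 cannot be set against it. Replicate differences of the TGFβ-titled and the untreated-titled hnRNP E1 groups correlated at r of -0.592. The other pairs of immunoprecipitation groups lay at -0.046 to 0.082. Whether the titled groups mix treatments was not tested, and which assignment holds is not settled by the labels.

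The fold limits given in the study's methods were also applied to the means. None of the members met those for a TGFβ-dependent move to polysomes in NMuMG cells, which 3.77% of probe sets met, while 2 members did without replicate 2 of the TGFβ-treated NMuMG monosomal arrays. Eif2ak2 missed 1 of them, with about 10.3 times more signal in the monosomal than the polysomal pool when untreated, 1 polysomal array being near background, and a TGFβ polysomal to monosomal ratio of 1.71, below the limit of 2. Eif5b had ratios of 2.78 and 1.82. For E1KD cells, where the limits ask for polysomal ratios of at least 2 with and without TGFβ, Eif2a (5.92 and 3.19), Eif5b (4.93 and 3.99) and Eif1b (3.08 and 2.16) met them, and 2.61% of probe sets did. The 4.93 of Eif5b rests on monosomal arrays close to background.

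Genes that act on initiation without bearing the Eif name were counted from a list of 31, of which 28 were tested. In TGFβ-treated E1KD cells 18 were higher in the polysomal pool and 8 lower, in untreated E1KD cells 7 and 4, in TGFβ-treated NMuMG cells 12 and 7 and in untreated NMuMG cells 6 and 17. The shares of all probe sets were 34.0% and 26.6%, 16.8% and 18.2%, 27.6% and 22.1%, and 29.3% and 41.9% in this order. Paip1, which links poly(A)-binding protein to eIF4A, was the most polysomal in the first 3, at 3.18, 1.60 and 2.15, and stood at -1.11 in untreated NMuMG cells. Gcn1, the activator of the kinase encoded by Eif2ak4, was monosomal at -1.5, -1.35 and -0.92, and was higher with hnRNP E1 than IgG by 1.22. In total RNA of E1KD cells Ppp1r15a, for the stress-induced subunit of the eIF2 alpha phosphatase, was lower with TGFβ at -2.81 and Mknk1, a kinase of eIF4E, at -1.47, with 3 of the 28 higher and 5 lower (all probe sets, 11.4% and 9.75%).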

How the data were processed

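RNA was hybridized to Affymetrix mouse genome arrays. The authors deposited log2 values made by RMA in Affymetrix Expression Console, to 2 decimals. RMA scales arrays to like overall signal (array medians were 5.36 to 5.70), so changes are relative to the RNA of each pool. No scanner files, detection calls or read depth were used, and the number of arrays limits the precision. Samples were grouped by title and source name. Probe sets over 5.52 (the overall median) on 8 or more of the 32 arrays were kept, and 64 control probe sets were left out. limma 3.58.1 in R 4.3.3 was fitted without a replicate block to 24 arrays (12 residual degrees of freedom) and to the 8 immunoprecipitation arrays (4), 2-sided. Each fit used the same spread of a probe set for all groups, though replicates did not agree equally well. The members' median absolute difference between replicates was 0.045 in untreated NMuMG total RNA and 0.17 in the TGFβ-treated NMuMG monosomal pool. Standard errors can thus be too small for the second and too large for the first. Gene names came from the platform annotation.

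Members and lists were chosen with earlier results of these data known. In each contrast the rule took up to 8 called members of largest difference with arrays that do not overlap (shifts: called). The text gives many of these, not all, and others by range. Eif4e, Eif4a1, Eif4a2, Eif4b, Eif4ebp1, Eif3a, Eif5, Eif5b and Eif6 are given in every polysomal minus monosomal comparison, but not in every other contrast. Further members are named where their role or probe sets asked for it, after their values were seen. Alternatives (2 of them, a fit without the untreated NMuMG pools and a crossed block, chosen after seeing the data) were other filters, scalings, sets of arrays, a block, an intensity trend, probe set means and omitted arrays. The procedure was tested on simulated data. Tables were handled with Python 3.11.15, pandas 2.3.3 and numpy 2.4.6.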

Additional observations from a re-analysis of the deposited data

Results flagged for a closer look

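The response to TGFβ differed between E1KD and NMuMG cells for 4 members in total RNA and, among those named for the polysome shift, for 8. Each difference is the E1KD change minus the NMuMG change on the log2 scale, with its standard error and limma's adjusted p from the test of that difference. In total RNA it was 0.92 for Eif4ebp2 (standard error 0.19, adjusted p = 0.00480) and -0.74 for Eif2d (0.15, 0.00387). It was -0.465 for Eif2a (0.15, 0.0493) and -0.445 for Eif3f (0.12, 0.0269).

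For the polysome shift, Eif2ak2 stood at -3.095 (standard error 0.61, adjusted p = 0.00114), Eif5b at -2.03 (0.25, 3.05e-05), Eif2ak4 at -1.53 (0.51, 0.0287) and Eif1ax at -1.40 (0.27, 0.000952). Eif1a stood at -1.18 (0.41, 0.0331) and Eif2b3 at -1.07 (0.28, 0.00694). Eif3d at 1.80 (0.18, 5.04e-06) and Eif3k at 1.18 (0.20, 0.000335) had the higher shift in E1KD cells. All 8 use the untreated NMuMG pools, whose polysomal minus monosomal difference was unlike that of the other conditions, and their part in these values was not tested. Quantile normalization ended the call of Eif2ak4, which is near background in those polysomal arrays, and centring on Actb and Gapdh that of Eif1a.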

How the results depend on the processing

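For 101 calls named by the rule, each 1 gene in 1 comparison, 1476 values were recomputed, of which 1385 kept direction and call, 90 kept direction and lost the call, and 1 turned. Calls outside these that turned with the scaling are given beside them. Eif4e, lower in total RNA of untreated E1KD than NMuMG cells, differed by 0.01 when its probe sets were averaged. Causes were not tested. Counts under TGFβ in total RNA moved under several alternatives. In NMuMG cells 1 was called, against 0 with no filter, 2 with quantile normalization or an intensity trend and 3 with only the arrays compared. In E1KD cells 9 were called, against 14 with a filter in every array or centring on Actb and Gapdh, 15 with only the arrays compared and 16 with quantile normalization or an intensity trend. The difference between the lines had 4, against 2 with no filter, 9 with quantile normalization, 12 with centring, 14 with only the arrays compared and 13 with the trend. The polysomal pool of NMuMG cells lost all 19 calls, to 0, with only the arrays compared. The fold limits in NMuMG cells gave 3 members with centring and 3 when relaxed, and in E1KD cells 7 when relaxed. By array number the hnRNP E1 libraries gave 3.

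With 1 array left out, its lone partner assumed to vary like the other groups, counts were 0 to 0 and 5 to 7 in total RNA of NMuMG and E1KD cells, 2 to 2 for their difference, 8 to 10 between the lines, 12 to 17 in the polysomal pool and 0 to 2 by the NMuMG fold limits. Replicate differences of 66 pairs of groups correlated at r of -0.383 to 0.323, with a median of 0.065 and 21 over 0.1. Whether the monosomal and polysomal pools of a replicate number pair with each other was not tested separately. With the replicate block 9 members were called under TGFβ in total RNA of E1KD cells, 1 in NMuMG cells, 17 between the lines, 34 between the pools of TGFβ-treated E1KD cells and 12 for hnRNP E1 over IgG. Crossing the numbers in that block gave 14. Without the untreated NMuMG pools in the fit, counts were 11 and 1 for TGFβ in total RNA of E1KD and NMuMG cells and 20 for the E1KD shift. Dim probe sets near background limit what could be detected.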
